A study of Homo sapiens with 8 samples.

Results

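The genes described are the 3 TGFβ ligands TGFB1, TGFB2 and TGFB3, the activin subunit gene INHBA, and the 4 latent TGFβ binding protein genes LTBP1, LTBP2, LTBP3 and LTBP4. They were chosen by name, with earlier results of these data known, and all 8 were among the 13307 genes of the expression table. Counts of them called, given beside the share over all genes, therefore describe these 8 and do not test the set. The study addressed what the chromatin reader PHF13 does in pancreatic cancer cells during the epithelial-mesenchymal transition that TGFβ induces. PANC-1 is an epithelial cell line that came from a human pancreatic duct carcinoma. It received a control siRNA (siControl) or siRNAs against PHF13 (siPHF13), and mRNA was sequenced either without added TGFβ or after 48 h with 10 ng/ml TGFβ. This gave 4 groups of 2 libraries each, written siControl, siPHF13, siControl + TGFβ and siPHF13 + TGFβ. All 4 groups went through transfection in medium with serum, and no group was left untransfected. The siRNAs lowered PHF13 and did not remove it, a single cell line was used, and nothing in the labels says that the 2 libraries of a group came from separate cultures, so p-values measure only the spread between these libraries, which may be technical.

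TGFβ is made as a precursor that proteases of the furin type cut. Its prodomain, the latency-associated peptide, stays bound to the mature dimer and keeps it inactive, and a latent TGFβ binding protein joined to that peptide by disulfide bonds ties the complex to the extracellular matrix. Integrins that contain the αV chain, thrombospondin and proteases can release the active ligand. LTBP1, LTBP3 and LTBP4 bind the latent complex, whereas LTBP2 does not bind latent TGFβ in this way and is known as a matrix protein of microfibrils. INHBA encodes the βA chain, and a dimer of that chain is activin A, which signals through the same SMAD proteins as TGFβ. Cancer cells of the pancreas both respond to TGFβ and secrete it.

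Promoters are shown for the 5 genes called changed after depletion without TGFβ, to show how different their start sites are. Each line gives the 250 bases before an annotated start, 5′ to 3′ on the gene's own strand, from RefSeq on GRCh38.p14. The deposited table was made on hg19, and it holds no coordinates. Capitals mark the letters searched for, on both strands: CAGACA and GGCGCC, which SMAD proteins can bind, TATAAA of the TATA box, TGACTCA of AP1, and ACGTCA, the core of the cAMP response element, which was added to the search after these sequences had been seen.
TGFB1: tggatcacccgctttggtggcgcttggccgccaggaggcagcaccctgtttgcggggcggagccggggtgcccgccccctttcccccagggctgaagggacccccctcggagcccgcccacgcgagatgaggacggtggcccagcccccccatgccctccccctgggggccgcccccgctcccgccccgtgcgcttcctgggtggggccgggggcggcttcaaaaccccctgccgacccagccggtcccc
TGFB2: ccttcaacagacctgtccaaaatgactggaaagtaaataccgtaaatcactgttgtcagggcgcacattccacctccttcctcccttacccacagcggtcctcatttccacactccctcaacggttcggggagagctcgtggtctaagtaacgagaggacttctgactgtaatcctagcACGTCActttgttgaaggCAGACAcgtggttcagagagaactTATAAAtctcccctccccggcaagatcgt
TGFB3: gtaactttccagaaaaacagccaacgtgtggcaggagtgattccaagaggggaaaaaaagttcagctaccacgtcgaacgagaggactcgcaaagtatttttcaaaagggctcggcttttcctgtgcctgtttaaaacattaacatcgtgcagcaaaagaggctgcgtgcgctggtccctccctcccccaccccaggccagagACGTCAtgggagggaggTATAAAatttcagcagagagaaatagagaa
LTBP1: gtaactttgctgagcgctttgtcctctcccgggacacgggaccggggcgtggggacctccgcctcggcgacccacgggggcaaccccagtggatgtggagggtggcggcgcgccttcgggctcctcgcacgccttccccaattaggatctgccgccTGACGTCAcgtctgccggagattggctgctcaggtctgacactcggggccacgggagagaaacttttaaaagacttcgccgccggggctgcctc
LTBP2: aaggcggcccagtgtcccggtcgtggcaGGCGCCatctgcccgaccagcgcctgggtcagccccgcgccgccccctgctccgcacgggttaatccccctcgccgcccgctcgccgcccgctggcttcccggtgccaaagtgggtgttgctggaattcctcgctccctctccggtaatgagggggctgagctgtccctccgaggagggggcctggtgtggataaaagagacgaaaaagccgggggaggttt
These windows are chr19:41353923-41354172 (minus strand), chr1:218345086-218345335 (plus), chr14:75981996-75982245 (minus), chr2:32946703-32946952 (plus) and chr14:74612238-74612487 (minus). The TGFB3 window is the second of 2 for that gene and the LTBP1 window the first of 3.

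The TGFB1 window had 76.8% G and C and none of the letters searched. The TGFB2 window had 50.4% G and C, with ACGTCA starting 71 bases, CAGACA 53 bases and TATAAA 29 bases before the start. In TGFB3, with 49.2% G and C, ACGTCA began 47 and TATAAA 30 bases before the start. LTBP1, at 66.4% G and C, held the palindrome TGACGTCA, in which TGACGT began 94 and ACGTCA 92 bases before the start, so that the 2 matches overlap. In LTBP1, windows 2 and 3, which are not printed, held CAGACA 89 bases and TGTCTG, its reverse complement, 121 bases before their starts. LTBP2, at 68.8%, held GGCGCC 222 bases before its start. ACGTCA was thus in a window of TGFB2, TGFB3 and LTBP1, and in no other window of the 8 genes. The windows printed for TGFB3 and LTBP1 are the only windows of those genes that held it. Because these letters were added after the sequences had been seen, their share over all windows cannot test the matches. Over 35116 windows of this length, 7.1% held ACGTCA, 13.6% CAGACA, 16.4% GGCGCC, 10.7% TATAAA and 4.2% TGACTCA, and the median window had 58% G and C. All 8 genes had at least 1 window, 13 in all, and none of the 13 held TGACTCA. A match describes the letters only and is not evidence that a factor binds there.

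On the GRCh37 annotation, TGFB1 lies on chr19:41807492-41859827, TGFB2 on chr1:218518678-218617961, TGFB3 on chr14:76424440-76449354 and INHBA on chr7:41706766-41745432. LTBP1 lies on chr2:33172020-33624576, LTBP2 on chr14:74964886-75079081, LTBP3 on chr11:65306030-65326401 and LTBP4 on chr19:41098789-41135723. Values are reads on exons of the whole gene, so that isoforms are not separated. The strand setting of the counting was not given in the sources used here. Of the members' exons, 215 bases of TGFB1 (6.59%) overlap HNRNPUL1, which lies on the opposite strand and was in the table. TGFB2 shares 701 exonic bases (11.6%) with the antisense gene TGFB2-AS1 and 1371 (22.7%) with TGFB2-OT1 on its own strand, neither of which was in the table.

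The libraries held between 39196214 and 46700806 reads on genes, with at most 1.13% of them on any single gene. PHF13 itself was at 1804 and 1662 normalized counts in siControl and at 524 and 558 in siPHF13, and at 1586 and 1710 in siControl + TGFβ against 513 and 529 in siPHF13 + TGFβ. That is a log2 fold change of -1.68 ± 0.09 (SE) without and -1.66 ± 0.09 with TGFβ, so that the labels of the depleted libraries hold. All 6 epithelial and duct markers sought were in the table, summing to between 121809.7 and 204434.4 normalized counts per library, lowest in siControl + TGFβ (121809.7 to 127489.8). No endothelial (0 of 3) or endocrine (0 of 2) marker was in it, and the 1 of 4 fibroblast (PDGFRB, at most 57.1) and 1 of 3 acinar (CEL, at most 25.2) markers were near the floor of the table. Of 4 immune markers, PTPRC and CD3E were not in the table, whereas CD68 and CD14 summed to between 7310.8 and 7438.8 in siControl and to between 11944.7 and 13094.1 in siPHF13. They lay at 6161.1 to 7710.5 in siControl + TGFβ and at 10576.8 to 13426.1 in siPHF13 + TGFβ. This sum thus moved with depletion, as TGFB2 and LTBP1 did, and its part in those results was not tested. All libraries came from the PANC-1 line, so the sum is not read here as a count of immune cells. In bulk RNA, fewer cells of a kind and less RNA per cell cannot be told apart.

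Normalized counts are reads divided by a size factor of each library. To compare genes they were further divided by the length of the canonical transcript in kb. On that scale, and in siControl, LTBP2 was highest at 1133 ± 8.69 per kb (SD, n = 2), followed by LTBP3 at 866 ± 0.329, TGFB1 at 725 ± 14.1, LTBP4 at 584 ± 1.30, LTBP1 at 502 ± 19.2, TGFB2 at 364 ± 15.4, TGFB3 at 146 ± 11.4 and INHBA at 26.4 ± 0.338. Each neighbour in this order differed by more than the sum of both SDs. INHBA, whose product is activin A, was thus the least abundant of the 8 in siControl, and in fact in every group. In siPHF13, LTBP1 (1281 ± 74.4) moved up to the second place, where it and TGFB1 (1110 ± 111.9) differed by less than the sum of their SDs, as did LTBP3 (789 ± 70.6) and TGFB2 (638 ± 100). In siControl + TGFβ, LTBP2 (3197 ± 99.8) stood far above LTBP3 (1411 ± 95.9) and TGFB1 (1241 ± 140), which did not differ beyond their spread. In siPHF13 + TGFβ, LTBP2 reached 3713 ± 443, TGFB1 (1513 ± 49.9) and LTBP1 (1416 ± 82.8) came next and did not differ beyond their spread, and TGFB2 (773 ± 101) and LTBP4 (772 ± 54.2) had overlapping libraries. Dividing by all annotated exons of a gene instead lowered LTBP3 in siControl to 363 per kb, beside LTBP4 at 357 and TGFB2 at 353, so that the place of LTBP3 depends on which length is taken.

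**Figure D1:**
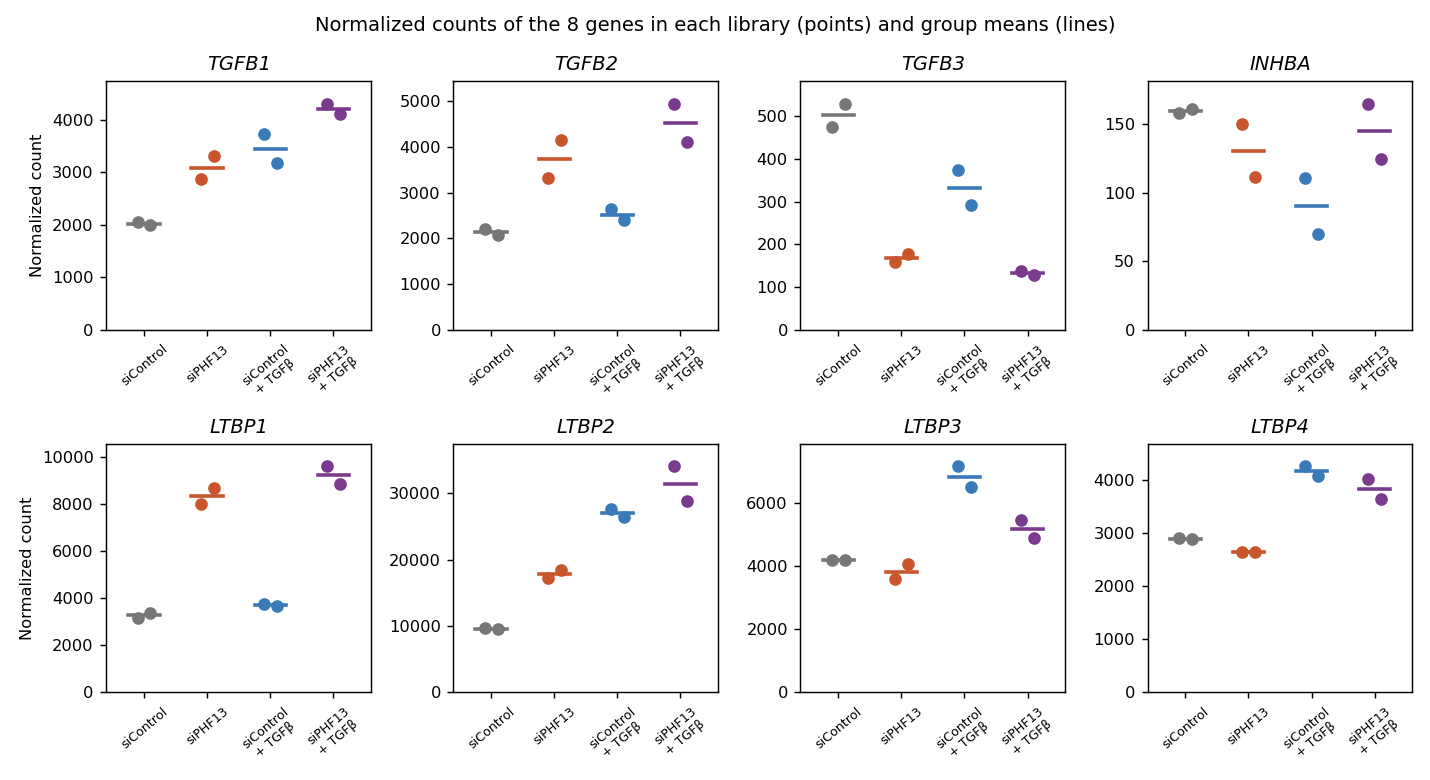
Normalized counts (y axis, linear from 0, own scale for each gene) of the 8 genes in each of the 8 libraries (points) with group means (lines), n = 2 per group. LTBP1, TGFB2 and TGFB3 separate by siRNA with or without TGFβ, LTBP3 and LTBP4 are higher with TGFβ, and LTBP2 and TGFB1 are higher in 3 groups than in siControl.

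Differences between groups were tested with limma on log2(normalized count + 1), in 1 fit over all 8 libraries, with Benjamini-Hochberg adjustment over the 13307 genes. A gene was called changed where its adjusted p was under 0.05 and its log2 fold change exceeded 0.58 in either direction, and errors of log2 fold changes are SEs. Fold changes are on this log2(value + 1) scale.

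Depletion without TGFβ raised the ligand genes TGFB1 and TGFB2 and the binding protein genes LTBP1 and LTBP2, and lowered TGFB3. INHBA, LTBP3 and LTBP4 were not called. These are 5 of 8 genes, beside 18.4% of all genes called in this comparison (7.95% higher and 10.4% lower). The median log2 fold change was 0.24 over the 8 genes and -0.001 over all genes. All 8 genes had libraries that did not overlap between the groups, as had 77.3% of all genes.

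TGFB1, the TGFβ isoform found in most tissues, was at 2043 and 1988 normalized counts in siControl and at 2867 and 3307 in siPHF13. Both depleted libraries were above both controls, and the rise was 1.53-fold (log2 fold change 0.61 ± 0.09, adjusted p = 6.92e-05). Its size was close to the threshold of 0.58, and the call was lost at 0.51 without siPHF13 replicate 2 and at 0.52 after a correction for GC content and length. TGFB2, an isoform whose latency-associated peptide lacks the RGD sequence that integrins recognize, was at 2202 and 2074 in siControl and at 3327 and 4157 in siPHF13. It rose 1.74-fold (0.80 ± 0.11, adjusted p = 3.76e-05), with the groups apart. TGFB3, the third isoform, went the other way, from 474 and 530 to 158 and 178. Both depleted libraries were below both controls, a change to 0.337 times the control level (log2 fold change -1.57 ± 0.17, adjusted p = 4.53e-06). INHBA was at 158 and 161 in siControl and at 150 and 111 in siPHF13, a difference of -0.30 ± 0.25 that did not pass (adjusted p = 0.351, 95% interval -0.85 to 0.24).

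Among the binding proteins, LTBP1 had the steepest rise, from 3176 and 3352 in siControl to 7985 and 8669 in siPHF13. This is 2.55-fold (log2 fold change 1.35 ± 0.07, adjusted p = 5.77e-09), and the groups were far apart. LTBP2, the microfibril protein, was at 9641 and 9537 in siControl and at 17252 and 18380 in siPHF13, a rise of 1.86-fold (0.89 ± 0.07, adjusted p = 5.4e-07). LTBP3, which carries the latent complex in bone and lung among other tissues, was at 4186 and 4184 in siControl and 3573 and 4055 in siPHF13. Its difference of -0.14 ± 0.08 (95% interval -0.31 to 0.03) was not called, with an adjusted p of 0.172. LTBP4, a binding protein of elastic fibers, stood at 2901 and 2892 against 2646 and 2648, a difference of -0.13 ± 0.07 (adjusted p = 0.136, 95% interval -0.28 to 0.02). For LTBP3 and LTBP4 the depleted libraries lay below the controls, and both intervals held 0.

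The same contrast in cells that had received TGFβ called TGFB2, LTBP1 and INHBA higher and TGFB3 lower, 4 of 8 genes beside 20.5% of all genes (8.81% higher, 11.7% lower). The median log2 fold change was 0.25 over the 8 genes and 0.003 over all genes. TGFB2 was at 2641 and 2394 normalized counts in siControl + TGFβ and at 4953 and 4115 in siPHF13 + TGFβ, a 1.79-fold difference (0.84 ± 0.11, adjusted p = 2.02e-05). LTBP1 was at 3732 and 3676 against 9591 and 8829, a 2.48-fold difference (1.31 ± 0.07, adjusted p = 6.61e-09). TGFB3 was at 374 and 291 against 138 and 127, a log2 fold change of -1.31 ± 0.17 (adjusted p = 2.05e-05). In all 8 genes the libraries of both groups did not overlap, as in 71.7% of all genes, and for these 3 the sign and rough size were those seen without TGFβ.

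INHBA was at 111 and 69.9 in siControl + TGFβ and at 165 and 125 in siPHF13 + TGFβ, higher by 0.70 ± 0.25 (log2 fold change, adjusted p = 0.0335). At these low counts its call was lost without siControl + TGFβ replicate 2 (0.37, adjusted p = 0.296), without siPHF13 + TGFβ replicate 1 (0.50, adjusted p = 0.188), in a limma fit of only the libraries compared (adjusted p = 0.059) and with DESeq2 (adjusted p = 0.0519). TGFB1 at 3724 and 3174 against 4304 and 4108 passed on its adjusted p of 0.0132 but not on size (0.29 ± 0.09). LTBP2 at 27646 and 26452 against 34059 and 28764 was likewise under the fold threshold (0.21 ± 0.07, adjusted p = 0.0294). LTBP3 at 7147 and 6491 against 5462 and 4895 was lower by less than the threshold (-0.40 ± 0.08, adjusted p = 8.71e-04). LTBP4 at 4262 and 4071 against 4020 and 3640 did not pass on either criterion (-0.12 ± 0.07, adjusted p = 0.154). On the adjusted p alone 7 of the 8 genes passed, beside 50.4% of all genes.

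**Figure D2:**
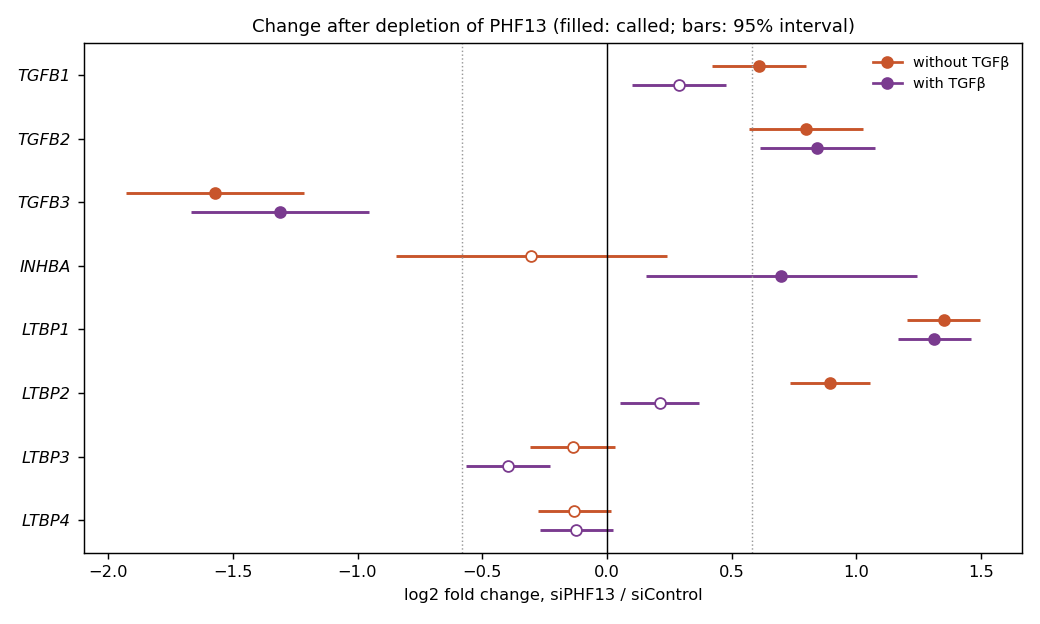
Log2 fold change of siPHF13 over siControl (x axis) for each gene, without (orange) and with TGFβ (purple), with 95% intervals from limma as bars, filled points for called genes and dotted lines at the fold threshold of 0.58. TGFB2, TGFB3 and LTBP1 are called on the same side in both, and LTBP2 and TGFB1 are called without TGFβ and not with it.

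TGFβ in siControl cells raised TGFB1, LTBP2 and LTBP3 and lowered TGFB3 and INHBA. This is 5 of 8 genes, beside 4.79% of all genes (3.27% higher and 1.52% lower), and the median log2 fold change was 0.38 over the 8 genes and -0.006 over all genes. Again no gene of the 8 had overlapping groups, as was so for 60.2% of all genes. TGFB1 went from 2043 and 1988 normalized counts to 3724 and 3174, a 1.71-fold rise (0.77 ± 0.09, adjusted p = 4.38e-05). LTBP2 had the largest change of the 8, from 9641 and 9537 to 27646 and 26452, which is 2.82-fold (1.50 ± 0.07, adjusted p = 1.53e-08). LTBP3 rose from 4186 and 4184 to 7147 and 6491, 1.63-fold (0.70 ± 0.08, adjusted p = 4.03e-05). LTBP4 was higher in both treated libraries, at 4262 and 4071 against 2901 and 2892, but its log2 fold change of 0.52 ± 0.07 was under the threshold (adjusted p = 1.44e-04).

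TGFB3 was at 374 and 291 with TGFβ against 474 and 530 without it (-0.60 ± 0.17, adjusted p = 0.024), and INHBA was at 111 and 69.9 against 158 and 161 (-0.85 ± 0.25, adjusted p = 0.0351). Both falls kept their sign but lost their call when siControl replicate 1 (adjusted p = 0.0902 for TGFB3 and 0.155 for INHBA), siControl replicate 2 (0.209 and 0.172) or siControl + TGFβ replicate 2 (0.187 and 0.253) was left out of the limma fit. TGFB2 (2641 and 2394 against 2202 and 2074) and LTBP1 (3732 and 3676 against 3176 and 3352) were higher in both treated libraries by less than the threshold. Their log2 fold changes were 0.23 (95% interval 0.01 to 0.46, adjusted p = 0.166) and 0.18 (0.04 to 0.33, adjusted p = 0.0859). The treated cells differed from the untreated ones also in the summed epithelial markers given above, which were lower, and the part of that shift in these changes was not tested.

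TGFβ in siPHF13 cells changed 1 of the 8 genes by both criteria, LTBP2, beside 1.35% of all genes (1.13% higher and 0.218% lower). LTBP2 went from 17252 and 18380 to 34059 and 28764 normalized counts, 1.76-fold (0.81 ± 0.07, adjusted p = 1.89e-05). TGFB1 went from 2867 and 3307 to 4304 and 4108 (0.45 ± 0.09, adjusted p = 0.0102), LTBP3 from 3573 and 4055 to 5462 and 4895 (0.44 ± 0.08, adjusted p = 0.00539) and LTBP4 from 2646 and 2648 to 4020 and 3640 (0.53 ± 0.07, adjusted p = 4.3e-04). Treated and untreated libraries did not overlap in these 3 genes (in 6 of the 8 genes, beside 39.8% of all genes), and the 3 passed on the adjusted p without reaching the fold threshold. On the adjusted p alone 4 of the 8 genes passed, beside 3.07% of all genes. TGFB2 and INHBA overlapped between treated and untreated siPHF13 cells, with differences of 0.28 ± 0.11 (adjusted p = 0.231) and 0.15 ± 0.25 (adjusted p = 0.865). The 95% interval for INHBA, from -0.39 to 0.70, still holds changes larger than the threshold. TGFB3, at 138 and 127 against 158 and 178, did not pass (-0.34 ± 0.17, adjusted p = 0.389), and LTBP1 stood at 0.15 ± 0.07 (adjusted p = 0.358).

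Whether the response to TGFβ itself differed between siPHF13 and siControl cells was tested as an interaction. LTBP2 was called, 1 of the 8, beside 0.308% of all genes (0.0601% higher and 0.248% lower). Its response was smaller in siPHF13 cells by 0.68 ± 0.11 on the log2 scale, that is -0.68 with a 95% interval of -0.91 to -0.46 (adjusted p = 0.00985). In siControl cells TGFβ took LTBP2 from about 9589 to 27049 mean normalized counts and in siPHF13 cells from 17816 to 31412, so that the depleted cells started higher and both ended near each other. The value lay between -0.80 and -0.56 whichever library was left out. The call was lost in 5 of 8 such fits: without siControl replicate 1 (adjusted p = 0.0968), siControl replicate 2 (0.142), siPHF13 replicate 2 (0.0739) or siControl + TGFβ replicate 1 (0.0906), and, on size, without siPHF13 + TGFβ replicate 2 (-0.56).

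INHBA had the largest interaction in size, 1.00 ± 0.36 with a 95% interval of 0.23 to 1.77, and it did not pass (adjusted p = 0.341). For TGFB1 the difference was -0.32 ± 0.12 (adjusted p = 0.388) and for LTBP3 -0.26 ± 0.11 (adjusted p = 0.472). TGFB3 gave 0.26 ± 0.23 (adjusted p = 0.814). For TGFB2, LTBP1 and LTBP4 the interaction was near 0, with 95% intervals of -0.28 to 0.37, -0.24 to 0.17 and -0.20 to 0.22. A call of TGFB1, TGFB3, INHBA or LTBP3 in 1 pair of groups alone was therefore not shown to be a difference between pairs.

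The mix of isoforms shifted with these changes. Per kb of canonical transcript, TGFB1 made up 58.9% and 58.5% of the summed TGFβ ligands in siControl, TGFB2 30.1% and 28.9%, and TGFB3 11.1% and 12.6%. In siPHF13 the share of TGFB3 was 2.8% and 2.67% and that of TGFB2 34.5% and 36.3%. With TGFβ the share of TGFB1 was 70.5% and 69.9% in siControl and 63.6% and 66.7% in siPHF13 cells, and that of TGFB3 5.74% and 5.19% against 1.66% and 1.67%. The share of TGFB3 therefore had an order of groups without overlap, from siControl through siControl + TGFβ and siPHF13 to siPHF13 + TGFβ. The sum of the 3 ligands was 1248 and 1223 per kb in siControl, 1644 and 1950 in siPHF13, 1899 and 1634 in siControl + TGFβ and 2433 and 2216 in siPHF13 + TGFβ.

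Among the binding proteins LTBP2 made up 37% and 36.5% of the sum per kb in siControl, 44.9% and 44.5% in siPHF13, 52.9% and 53.4% in siControl + TGFβ and 54.1% and 52.3% in siPHF13 + TGFβ. LTBP1 held 15.9% and 16.7% in siControl and 27.1% and 27.3% in siPHF13, and 9.29% and 9.65% against 19.8% and 20.9% with TGFβ. The share of LTBP3 was 28.1% and 28% in siControl and 16.3% and 17.2% in siPHF13, although its own level was not called changed. LTBP4 held 19% and 18.9% in siControl and between 10.9% and 14% in the other groups. With all annotated exons as the length, the share of LTBP3 in siControl was 16.4% and 16.3%, while the order of the groups for TGFB3 stayed. No test was run on the shares, and with 2 libraries against 2 an exact permutation test could not give a two-sided p under 0.333.

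**Figure D3:**
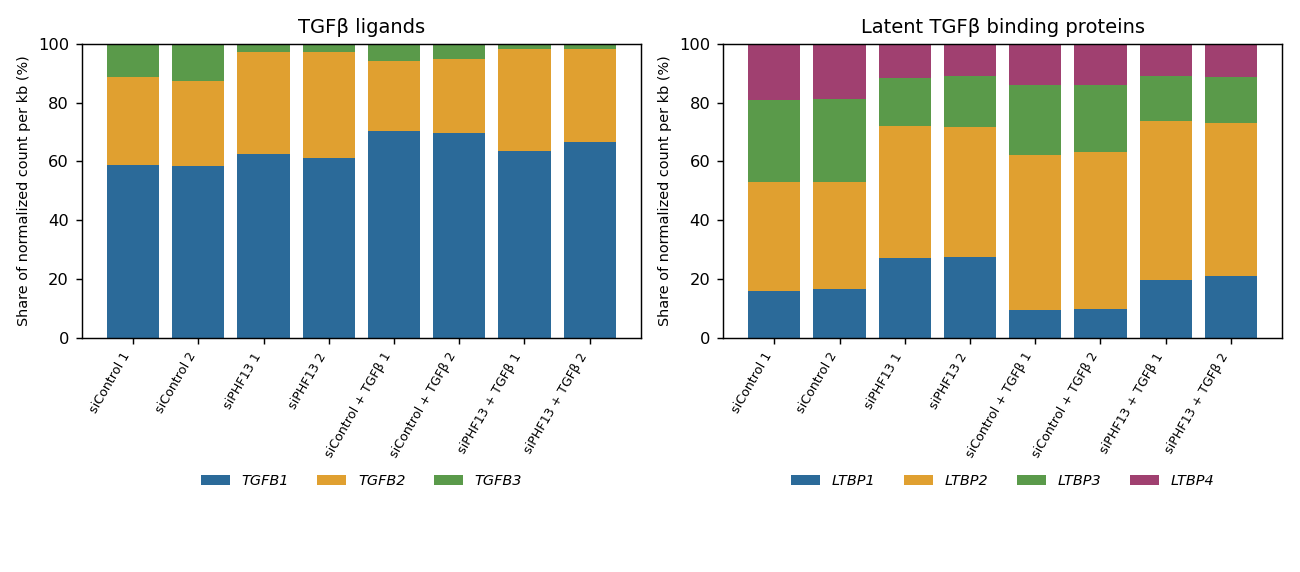
Share (y axis, percent) of each isoform in the summed normalized count per kb of canonical transcript, one bar per library, for TGFB1 to TGFB3 (left) and LTBP1 to LTBP4 (right). TGFB3 goes from 11.1% and 12.6% in siControl to 1.66% and 1.67% in siPHF13 + TGFβ, and LTBP1 is a larger part of the bar in siPHF13 than in siControl libraries with or without TGFβ.

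Across the 8 libraries, levels of LTBP1 and TGFB2 went together (Pearson r = 0.963 on the log2 scale), as did those of TGFB1 and LTBP2 (0.969) and of LTBP3 and LTBP4 (0.949), and LTBP1 and TGFB3 went opposite ways (-0.959). These coefficients are descriptions over 8 libraries that fall into 4 groups, so that the group differences given above carry them. Among the 11200 genes that averaged 100 or more normalized counts, the 2 with the pattern most like TGFB1 were GRN (r = 0.991) and TIMP2 (0.99), for TGFB2 RBPJ (0.996) and CERS6 (0.991), for TGFB3 SLCO4A1 (0.995) and CALCOCO2 (0.995), and for INHBA POLE2 (0.97) and MLX (0.97). LTBP1 had MICAL2 (0.998) among its 2. For LTBP2 they were HMGA2 (0.998) and ADAM19 (0.997), for LTBP3 SIM2 (0.995) and ZNF385A (0.992), and for LTBP4 JUNB (0.989) and HOOK2 (0.989). With so many genes and 8 libraries, coefficients of this size are found for each of the 8.

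The proteins that act on these ligands were looked at in lists. Of 18 activators and processing enzymes of latent TGFβ, 17 were in the table. With TGFβ in siControl cells 7 rose and 0 fell, with a median log2 fold change of 0.48 (all genes: 4.79% called, median -0.006). The gelatinase gene MMP2 went from 5366 and 5576 to 21622 and 19682 normalized counts (1.92 ± 0.08, adjusted p = 4.74e-09), the membrane protease gene MMP14 from 1405 and 1418 to 3686 and 3427 (1.33 ± 0.09, adjusted p = 2.42e-07), and MMP9 from 114 and 122 to 282 and 274 (1.23 ± 0.19, adjusted p = 6.05e-04). ITGB3, a partner of the αV integrin chain, rose with TGFβ (1.13 ± 0.09, adjusted p = 1.33e-06) and with depletion, from 780 and 867 to 2203 and 2358 (1.47 ± 0.09, adjusted p = 2.95e-08). Depletion without TGFβ called 2 of the 17 higher and 2 lower (18.4% of all genes), and with TGFβ 1 higher and 3 lower (20.5%). In siPHF13 cells TGFβ raised 5 and lowered 1 (1.35%). The response was smaller in siPHF13 cells for MMP2 (-0.92 ± 0.12, adjusted p = 0.00298) and, named after its value was seen, the αV chain gene ITGAV (-0.60 ± 0.09, adjusted p = 0.00631). The interaction was thus called lower for 2 of the 17 and higher for 0, beside 0.308% of all genes (0.248% lower). That count was 1 without siControl replicate 1, siControl replicate 2 or siControl + TGFβ replicate 2, and 1 after the correction for GC content and length.

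Of 19 symbols sought for matrix and surface anchors of the latent complex, 10 were in the table. LRRC33, among those not found, is another name of NRROS, which was in it. Depletion called 2 higher and 2 lower both without TGFβ (all genes: 18.4% called) and with it (20.5%). TGFβ called 2 higher in siControl (4.79%) and 1 higher in siPHF13 cells (1.35%). The median log2 fold changes of the list were 0.04 and 0.18 for depletion without and with TGFβ, beside -0.001 and 0.003 over all genes. TGM2, the transglutaminase that crosslinks binding proteins to the matrix, rose with depletion from 4006 and 3677 to 16788 and 19776 (2.25 ± 0.08, adjusted p = 3.87e-10). NRROS, a cell surface anchor of latent TGFB1 known from myeloid cells, rose from 992 and 1043 to 2030 and 1947 (0.97 ± 0.08, adjusted p = 4.58e-07). The microfibril gene MFAP2 rose with TGFβ from 592 and 634 to 1806 and 1551 (1.45 ± 0.10, adjusted p = 6.68e-07). FN1, the fibronectin gene, was at 105 and 141 in siControl and at 49.7 and 92.7 in siPHF13 (-0.83 ± 0.29, adjusted p = 0.0286). Without siControl replicate 2, depletion called 2 of the 10 in place of 4.

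Of 28 other ligands of the family, 16 were in the table. Depletion called 2 higher and 1 lower without TGFβ (all genes: 18.4% called) and again with it (20.5%), shares of the 16 near those of all genes. TGFβ called 2 lower in siControl cells (4.79%) and 1 higher and 1 lower in siPHF13 cells (1.35%). At a minimum mean of 100, depletion called 1 gene both without and with TGFβ, and TGFβ called 1 in siPHF13 cells. Depletion with TGFβ also called 1 without siPHF13 + TGFβ replicate 1. TGFβ in siControl cells called 1 without siControl replicate 2 or siControl + TGFβ replicate 2. In siPHF13 cells it called 1 under each leave-one-out fit but that without siPHF13 replicate 2, and 1 with the replicate block, edgeR, DESeq2 or a fit of only the libraries compared. INHBB, which encodes the chain of activin B, fell with TGFβ in siControl from 1737 and 1619 to 702 and 779 (-1.18 ± 0.09, adjusted p = 1.24e-06) and in siPHF13 cells from 1386 and 1451 to 786 and 842 (-0.80 ± 0.09, adjusted p = 1.44e-04). BMP5 rose with depletion from 414 and 516 to 877 and 980 (1.00 ± 0.14, adjusted p = 4.17e-05) and was lower with TGFβ in siControl, at 313 and 272 (-0.66 ± 0.14, adjusted p = 0.00404).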

How the data were processed

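RNA-seq of PANC-1 cells in 4 groups of 2 libraries was used. The submitters' processing notes name Trim Galore 0.4.1, STAR 2.7.0, HTSeq 0.12.4 and DESeq2, with hg19. The strand setting and the annotation release were not given in the sources used here. The values are a signal deposited by the authors: normalized counts, that is read counts per gene divided by a DESeq2 size factor of the library, for 13307 genes. 3 further tables with the authors' own group means, fold changes and p-values were not used.

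In each library 100% of the values were whole multiples of 1 step, the worth of 1 read, within 0.01 of a whole number. For siPHF13 replicate 1 the step was 0.995, too near 1 to tell reads from rounding, so count models ran on the other 7 libraries, with the lone siPHF13 library assumed to vary like the others. Replicates differed by 3.62 to 23.2 times the variance that counting alone gives, so no counting intervals are given for single genes.

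limma 3.58.1 (R 4.3.3) was fitted to log2(normalized count + 1) over all 8 libraries as 4 group means with a trended prior variance, two-sided, with Benjamini-Hochberg adjustment over all genes. Requiring 10 normalized counts in 2 or more libraries removed 0 genes. Thresholds (adjusted p under 0.05, absolute log2 fold change over 0.58) follow the study's methods. The procedure was run on simulated data in which some genes were changed in siPHF13 only and all libraries shared the same spread. In the real data the spread differed between groups, so that run does not show how often calls are right here. The 5 comparisons were depletion without and with TGFβ, TGFβ in siControl and in siPHF13 cells, and the interaction. Several of them share groups, so they are not independent of each other. Libraries with the same replicate number showed no shared deviation from their group means (correlations between -0.089 and 0.05). This does not show that they were unpaired, and the labels do not say how replicates were made.

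Alternatives were a pseudocount of 5, no minimum, a minimum mean of 100, TMM factors (edgeR 4.0.16), separate fits of the libraries being compared, a replicate block, a GC and exon length correction per library, both together, edgeR's quasi-likelihood test, DESeq2 1.42.0, no fold threshold, and each library left out in turn. Lengths came from GENCODE on GRCh37, matched by symbol for 13123 genes (98.6%), and promoters from RefSeq.

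The 8 genes and the gene lists were chosen with earlier results of these data known. Genes named besides them are PHF13, up to 4 genes of each list with the largest called change in either depletion comparison or with TGFβ in siControl cells (mean of at least 100), and the 2 genes most like each of the 8. Some genes that these rules select are not reported here.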

Additional observations from a re-analysis of the deposited data

Results flagged for a closer look

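The response of LTBP2 to TGFβ differed between siPHF13 and siControl cells by a test of the difference itself, with an interaction of -0.68 on the log2 scale (SE 0.11, limma, adjusted p = 0.00985). The 2 siControl libraries without TGFβ stood at 9641 and 9537 normalized counts and the 2 with it at 27646 and 26452, a log2 fold change of 1.50. In siPHF13 cells the values were 17252 and 18380 without and 34059 and 28764 with TGFβ, a log2 fold change of 0.81. The spread between the 2 siPHF13 + TGFβ libraries was the widest of the 4 groups.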

How the results depend on the processing

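For the 8 genes, 714 of 752 values of single log2 fold changes under the alternatives kept their direction and their side of the threshold. This count includes repeats of the main result. The minimum removed 0 genes, so the fit without it is the main fit. Dropping the fold threshold, raising the minimum mean and adding the replicate block, which is balanced over the groups, leave the log2 fold changes themselves as they were. Dropping the fold threshold raised the genes called to 6308 for depletion, 2114 for TGFβ in siControl, 6712 for depletion with TGFβ and 409 for TGFβ in siPHF13 cells, and the members called to 7 for depletion with TGFβ and 4 for TGFβ in siPHF13 cells. This follows from the alternative's construction. For the interaction, edgeR on 7 libraries called 27 genes, against 41 with limma on all 8 libraries. The edgeR fit was without siPHF13 replicate 1, so these counts differ in the libraries used as well as in the method. They do not compare the methods alone, and the cause was not tested. The limma count without that library is given below. With each library left out in turn, the members called ranged from 4 to 5 for depletion, 3 to 5 for TGFβ in siControl, 3 to 4 for depletion with TGFβ, 1 to 2 for TGFβ in siPHF13 cells and 0 to 1 for the interaction, and the genes called for the interaction from 12 to 111. The count of 12 came without siControl replicate 2 and that of 111 without siPHF13 + TGFβ replicate 1, and it was 16 without siControl + TGFβ replicate 1, 19 without siControl replicate 1, 21 without siControl + TGFβ replicate 2 and 22 without siPHF13 replicate 1. LTBP4 was called higher with TGFβ in siPHF13 cells (0.60) without siPHF13 + TGFβ replicate 2.

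Signs turned only for differences that had not passed. INHBA with TGFβ in siPHF13 cells ranged from -0.063 to 0.364 over the libraries left out, at -0.063 without siPHF13 replicate 2 and -0.048 without siPHF13 + TGFβ replicate 1. The interaction of TGFB2 was -0.11 with edgeR and -0.11 with DESeq2, both run without siPHF13 replicate 1. With limma it was -0.115 without that library. Over the libraries left out, the interaction of TGFB2 ranged from -0.115 to 0.206, that of LTBP1 from -0.097 to 0.022 and that of LTBP4 from -0.064 to 0.079. TGFB1 after depletion was 0.52 with the correction for GC content and length, with or without the replicate block.

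The replicate number as a block changed no call of the 8 genes: 5, 5, 4 and 1 members were called in the 4 comparisons of groups under the replicate block and 1 for the interaction, where it called 39 genes in all. The fit of only the groups compared was not made for the interaction, which needs all 4 groups. Rescaling by TMM factors left the median of all genes between -0.008 and 0.008. INHBA, with about 70 to 165 normalized counts per library, is the member for which depth limits precision most.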

Other observations

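Genes on the receiving side of the pathway were not described above. Of 11 receptors and coreceptors, 9 were in the table. Depletion called 0 higher and 3 lower both without TGFβ (18.4% of all genes called) and with it (20.5%). TGFBR1, the type I receptor, was at 1587 and 1662 normalized counts in siControl and at 896 and 820 in siPHF13 (log2 fold change -0.92 ± 0.12, limma, adjusted p = 2.63e-05). TGFBR3, the coreceptor betaglycan, which presents TGFB2 in particular, was at 1352 and 1303 against 488 and 577 (-1.32 ± 0.13, adjusted p = 2.52e-06). The activin receptor gene ACVR2B was at 444 and 369 against 231 and 228 (-0.82 ± 0.16, adjusted p = 7.6e-04). With TGFβ in siControl cells 1 of the 9 was called, beside 4.79% of all genes (1.52% lower). This was TGFBR3, which fell to 658 and 805 (-0.87 ± 0.13, adjusted p = 4.33e-04).

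Of 15 secreted antagonists, 7 were in the table. With TGFβ in siControl cells 4 rose and 0 fell (all genes: 4.79% called). Depletion called 2 higher and 2 lower without TGFβ (18.4%) and 1 higher and 4 lower with it (20.5%), where 3 in all were called without siPHF13 + TGFβ replicate 1, with DESeq2 or at a minimum mean of 100. VASN, which binds TGFβ, was at 522 and 484 in siControl, at 303 and 242 in siPHF13, at 1019 and 906 in siControl + TGFβ and at 416 and 497 in siPHF13 + TGFβ. FSTL1 was at 391 and 410, 250 and 265, 708 and 769, and 449 and 432 in the same order. NOG, the BMP antagonist noggin, rose with depletion from 449 and 372 to 1310 and 1011 (1.49 ± 0.13, limma, adjusted p = 6.99e-07).

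Of 11 symbols sought for well known targets of TGFβ, 10 were in the table. CCN2, the symbol not found, is another name of CTGF, which was in it. With TGFβ 8 rose in siControl (all genes: 4.79% called) and 6 in siPHF13 cells (1.35%), and the interaction was called lower for 4 (0.308%). COL1A1, the collagen I gene, went from 3345 and 3433 to 16414 and 15334 in siControl and from 1922 and 1887 to 4909 and 4691 in siPHF13 cells (interaction -0.89 ± 0.09, limma, adjusted p = 3.58e-04). PMEPA1 went from 3834 and 3746 to 18006 and 16900 and from 3250 and 3280 to 9164 and 8862 (interaction -0.74 ± 0.08, adjusted p = 0.00118). CTGF rose from 6103 and 5707 to 15112 and 14352 in siControl and from 12602 and 11144 to 19353 and 18141 in siPHF13 cells (interaction -0.66 ± 0.10, adjusted p = 0.00909). The 4th was TGFBI, named after its value was seen (interaction -0.61 ± 0.09, adjusted p = 0.00909). Without siControl replicate 2 or siControl + TGFβ replicate 1 the interaction was called for 2 of the 10.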
